A study of Gallus gallus with 15 samples.

Results

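The genes described here are the transcription factors of the FOXO family and the ubiquitin ligases that take muscle protein apart when a muscle shrinks. They were chosen by name from the expression table, which holds 48836 entries under 23599 gene names. Of the 9 genes sought (FOXO1, FOXO3, FBXO32, FBXO30, FBXO40, TRIM63, TRIM55, TRIM54 and MUL1), 7 had at least 1 entry under their name. FBXO40 and FOXO3 had none and were not analysed here. Breast muscle was taken from untreated Jingyuan hens that had been reared together on the same feed, which they ate freely. Ages were 42, 126 and 180 days, with mean body weights of 0.422 ± 0.03, 1.68 ± 0.14 and 2.03 ± 0.09 kg in that order, and RNA of 5 birds per age was sequenced, 15 birds in all. Age is thus the only difference between the groups that the labels give, and it goes together with body weight. Expression is given in FPKM, the number of fragments scaled to transcript length and to all mapped fragments of the bird, so that levels of different genes can be compared per length. The FPKM of entries that share a name were summed.

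Muscle is lost when proteins are marked with ubiquitin and handed to the proteasome faster than they are made. Insulin and growth factor signalling through AKT keeps FOXO proteins out of the nucleus, and when this signal falls, as in fasting, FOXO proteins enter it and switch on the ligases that pick the proteins to be marked. In mammals FBXO32 (atrogin-1) and TRIM63 (MuRF1) are the classical markers of such atrophy. FBXO32, FBXO30 (MUSA1) and FBXO40 belong to the F-box family, which brings substrates to the SCF ligase complex, whereas TRIM63, TRIM55 (MuRF2) and TRIM54 (MuRF3) are RING finger ligases of the sarcomere, and MUL1 sits in the outer mitochondrial membrane.

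The labels describe the samples as breast tissue but also as primary myoblasts, while the design text describes frozen muscle. Of 10 skeletal muscle markers 6 were found by name, and their summed level lay between 13868 and 20746 FPKM in 14 birds and at 7641 FPKM in replicate 5 of 42 days. PVALB, a marker on that list, was near 0 in nearly all birds. Markers of blood, fat, vessel and connective tissue cells were present as well, so the samples were read as whole muscle, in which fewer cells of a type and less RNA per cell cannot be told apart. The B cell, T cell and myeloid sums of replicate 1 of 180 days were 524, 118 and 1475 FPKM, against at most 5.59, 12.5 and 137 FPKM in the other birds of that age. Replicate 1 of 126 days had the highest fibroblast sum, 1272 FPKM, and the highest erythrocyte sum, 279 FPKM. Its B cell, T cell and myeloid sums of 57.7, 41.3 and 606 FPKM were the highest of its age. These 3 birds stand apart, and for part of the results below values without them are also given. A satellite cell sum of 580.83 FPKM, of which MYOD1 made up 573.26 FPKM, set replicate 3 of 126 days apart as well. The other birds of that age had at most 232.17 FPKM. FPKM summed to between 413638 and 481698 per bird, and log2 values of any 2 birds correlated with r between 0.806 and 0.964 over 11601 genes. Depth is unknown, since FPKM with 2 decimals carry no read counts.

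FOXO1 and TRIM54 were the members that passed the test, each in 1 comparison. The calls were lost in 8 and 7 of the 10 fits that left out 1 bird. FOXO1 rose from 4.93 ± 3.05 FPKM at 42 days to 14.9 ± 5.71 FPKM at 126 days (mean ± SD, n = 5). TRIM54 rose from 53.9 ± 14.6 FPKM at 126 days to 109 ± 16.9 FPKM at 180 days. The classical atrophy ligases FBXO32 and TRIM63, among the most abundant transcripts of the tissue, did not pass the test in any comparison. With FBXO30 they differed widely between birds of the same age, most of all at 42 days. Their medians at 42, 126 and 180 days were 34.5, 197 and 214 FPKM (FBXO32), 22.4, 25.2 and 47.4 FPKM (FBXO30) and 82.5, 322 and 341 FPKM (TRIM63). FBXO32, FBXO30 and TRIM63 tended to be high or low in the same birds, with exceptions. In replicate 1 of 126 days TRIM63 was the lowest of its age, at 187.72 FPKM. FBXO32 was 197.25 FPKM in that bird, against 45.09 FPKM in replicate 3.

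In a comparison of 126 with 42 days, 1 of the 7 members passed an adjusted p of 0.05, against 3.21% of all 11482 genes tested, and it was higher at the later age, where 0.644% of all genes were higher and 2.57% lower. Between 180 and 42 days 0 of 7 passed, against 3.41% of 11691 genes (0.599% higher and 2.81% lower). The tests were those of limma with Benjamini-Hochberg adjustment over all genes. Between 180 and 42 days 2 members, TRIM54 and MUL1, had an unadjusted p under 0.05, as did 17.6% of all genes. Between 180 and 126 days 1 of 7 passed, against 1.25% of 11515 genes, and it was higher at the later age, as were 0.729% of all genes, while 0.521% were lower. The birds of the ages did not overlap for 0, 0 and 1 of the 7 members in these 3 comparisons, and for 6.45%, 5.67% and 4.32% of all genes. With 7 members a share near these backgrounds would be 0 or 1 gene. The median log2 fold change of the members, later over earlier, was 0.26, 0.32 and 0.23 in the 3 comparisons, and that of all genes was -0.15, -0.13 and 0.01. In each comparison 4 members had a positive and 3 a negative log2 fold change.

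**Figure D1:**
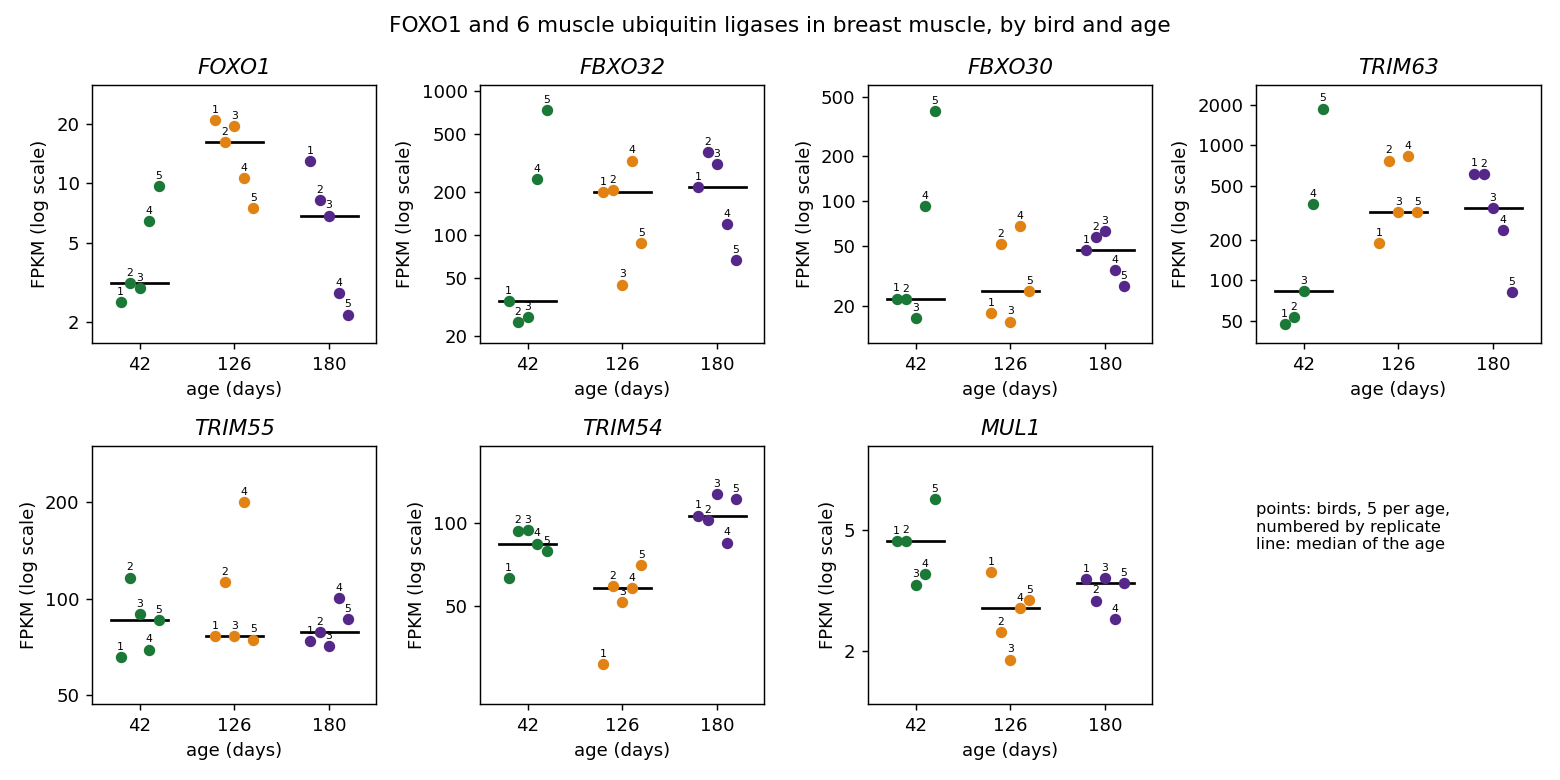
FPKM (log scale) of FOXO1 and 6 ubiquitin ligases in each of the 15 birds by age in days, with points numbered by replicate and a line at the median of each age. FOXO1 had its highest median, 16.13 FPKM, at 126 days, TRIM54 separated 126 from 180 days, and FBXO32, FBXO30 and TRIM63 spread widest at 42 days.

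FOXO1 is the FOXO factor that represses growth and turns on genes of fasting metabolism in muscle. At 42 days its level was 2.50, 3.14, 2.96, 6.41 and 9.63 FPKM in replicates 1 to 5. At 126 days it was 20.89, 16.13, 19.34, 10.62 and 7.49 FPKM. At 180 days it was 12.96, 8.19, 6.86, 2.79 and 2.17 FPKM. The 126-day birds were the highest as a group, but replicate 5 of 42 days lay above the lowest bird of 126 days, so the ages overlapped. From 42 to 126 days FOXO1 rose 3.19-fold (log2 fold change 1.67, SE 0.39, 95% interval 0.82 to 2.53, limma adjusted p = 0.0417, exact permutation p = 0.0159, n = 5 per age). The call held without replicate 5 of 42 days (limma adjusted p = 0.0152) and without replicate 5 of 126 days (limma adjusted p = 0.0399). It was lost without any of the other 8 birds, replicate 1 of 126 days among them. In those fits the adjusted p by limma was between 0.0606 and 0.106. The log2 fold change stayed between 1.48 and 1.96 in these 10 fits.

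Lymphocyte markers, like FOXO1, were higher at 126 than at 42 days. The sum of the B cell markers (5 of 6 found) was 0.65 to 13.12 FPKM at 42 days and 21.17 to 57.69 FPKM at 126 days, and that of the T cell markers (10 of 10 found) was 4.65 to 12.55 and 16.27 to 41.32 FPKM, with no overlap of the ages for either. At 180 days both sums were below those of all 126-day birds except in replicate 1, which also had the highest FOXO1 of its age. Replicate 1 of 126 days likewise had the highest of both sums and of FOXO1 at its age. Within 42 days the highest B cell sum was in replicate 5, the bird with the most FOXO1. The highest T cell sum of that age was in replicate 1, the bird with the least FOXO1. The part of these cells in the level of FOXO1, or in other differences that set 126 days apart, was not tested.

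From 126 to 180 days the log2 fold change of FOXO1 was -1.35 (SE 0.47, 95% interval -2.37 to -0.33, limma adjusted p = 0.181, exact permutation p = 0.0476, n = 5 per age), which did not pass. Without replicate 1 of 180 days, the bird with the high immune cell markers, it was -1.67 (limma adjusted p = 0.0502). Between 180 and 42 days the log2 fold change was 0.32 (SE 0.51, limma adjusted p = 0.799), with a 95% interval from -0.78 to 1.42. FOXO1 was the least abundant member but for MUL1, at a mean of 8.81 FPKM over the 15 birds, and 63.5% of genes had a lower mean.

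FBXO32 encodes the F-box protein that targets MYOD1 and the translation factor EIF3F in mammals. At 42 days it was 34.46, 24.64, 26.83, 244.46 and 734.94 FPKM in replicates 1 to 5. The 126-day birds had 197.25, 203.73, 45.09, 328.33 and 88.23 FPKM. The 180-day birds had 213.73, 376.87, 309.89, 118.26 and 67.12 FPKM. At 42 days replicates 1 to 3 lay below every older bird, and replicate 5 lay above all other birds of the study, so that the other ages fell inside the range of the youngest. The highest bird exceeded the lowest 29.8-fold at 42 days, 7.28-fold at 126 days and 5.61-fold at 180 days. The means of the ages (213 ± 306, 173 ± 111 and 217 ± 129 FPKM) hide this spread. The log2 fold change was 0.73 (SE 0.90, limma adjusted p = 0.691) from 42 to 126 days, 1.12 (SE 0.89, limma adjusted p = 0.579) from 42 to 180 days and 0.38 (SE 0.57, limma adjusted p = 0.829) from 126 to 180 days. The 95% interval of the first reached from -1.23 to 2.70, so that with 5 birds per age both a lower and a higher level at 126 days remained possible. Without replicate 5 of 42 days the log2 fold changes against 42 days were 1.52 and 1.90 (limma adjusted p = 0.272 and 0.169).

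FBXO30, an F-box ligase that in mice is held down by BMP signalling, tended to follow the same birds. At 42 days it was 22.39, 22.18, 16.48, 92.67 and 399.31 FPKM in replicates 1 to 5. Levels at 126 days were 17.99, 51.68, 15.70, 68.60 and 25.16 FPKM. Levels at 180 days were 47.39, 57.79, 63.57, 34.65 and 27.05 FPKM. All ages overlapped, and replicate 5 of 42 days was the highest of the 15 birds. The log2 fold change was -0.72 (SE 0.78, limma adjusted p = 0.648) from 42 to 126 days, -0.18 (SE 0.73, limma adjusted p = 0.931) from 42 to 180 days and 0.54 (SE 0.40, limma adjusted p = 0.582) from 126 to 180 days. Without replicate 5 of 42 days the first became 0.03 and the second 0.57, and without replicate 4 of 42 days the second became 0.04, so that the sign of these differences rested on single birds.

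TRIM63 marks myosin and other proteins of the thick filament for breakdown. It was the most abundant member, with a mean of 450 FPKM over the 15 birds, and 99.3% of genes had a lower mean. At 42 days it was 47.52, 53.29, 82.50, 368.18 and 1871.65 FPKM in replicates 1 to 5. At 126 days it was 187.72, 772.40, 320.25, 831.36 and 321.62 FPKM, and at 180 days 618.38, 612.01, 341.42, 234.35 and 81.64 FPKM. As for FBXO32, replicates 4 and 5 of 42 days stood above replicates 1 to 3, and all ages overlapped. The log2 fold change was 1.28 (SE 0.89, 95% interval -0.64 to 3.21, limma adjusted p = 0.451) from 42 to 126 days, 0.82 (SE 0.94, limma adjusted p = 0.711) from 42 to 180 days and -0.47 (SE 0.57, limma adjusted p = 0.777) from 126 to 180 days. Without replicate 5 of 42 days the first was 2.15 (limma adjusted p = 0.0818) and the second 1.68 (limma adjusted p = 0.222). That bird also had the lowest summed level of skeletal muscle markers, given above, and the part of this in its FBXO32, FBXO30 and TRIM63 levels was not tested.

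TRIM55, which binds titin and microtubules at the M-line, was steadier. At 42 days it was 65.42, 116.16, 89.53, 69.20 and 85.54 FPKM in replicates 1 to 5. In the 126-day birds it was 76.49, 112.80, 76.50, 200.28 and 74.43 FPKM, and at 180 days 73.53, 78.68, 71.00, 100.28 and 86.33 FPKM. The ages overlapped almost fully, and only replicate 4 of 126 days lay well above the others. The log2 fold change was 0.26 (SE 0.28, limma adjusted p = 0.644) from 42 to 126 days and -0.04 (SE 0.18, limma adjusted p = 0.946, 95% interval -0.43 to 0.36) from 42 to 180 days. From 126 to 180 days it was -0.29 (SE 0.26, limma adjusted p = 0.654).

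TRIM54, which associates with microtubules and the Z-disc and in mammals takes part in sarcomere upkeep, separated the older ages. At 42 days it was 63.20, 93.86, 94.32, 84.21 and 79.11 FPKM in replicates 1 to 5. At 126 days it was 30.65, 58.84, 51.66, 57.80 and 70.36 FPKM, and at 180 days 106.49, 102.73, 127.60, 84.96 and 122.26 FPKM. Every bird of 180 days lay above every bird of 126 days, which held for 4.32% of all genes in that comparison, whereas 42 days overlapped with both other ages. From 126 to 180 days TRIM54 rose 2.07-fold (log2 fold change 1.05, SE 0.21, 95% interval 0.59 to 1.51, limma adjusted p = 0.0382, exact permutation p = 0.00794, n = 5 per age). This exact p is the smallest that 5 birds against 5 can give. The lowest bird was replicate 1 of 126 days, the bird with the high fibroblast and erythrocyte markers, and without it the log2 fold change was 0.86 (limma adjusted p = 0.0328). The call also held without replicate 5 of 126 days (limma adjusted p = 0.0383) and without replicate 1 of 180 days (limma adjusted p = 0.0338). It was lost without any of the other 7 birds, with an adjusted p by limma between 0.0607 and 0.114. Marker sums differed between these ages too. The median fibroblast sum was 250 FPKM at 126 days and 79.2 FPKM at 180 days, and that of slow and cardiac fibres 2868 and 3605 FPKM. The part of tissue make-up in the level of TRIM54, or in other differences between these ages, was not tested.

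From 42 to 126 days the log2 fold change of TRIM54 was -0.66 (SE 0.22, limma adjusted p = 0.128, exact permutation p = 0.0159, n = 5 per age) and from 42 to 180 days 0.39 (SE 0.17, limma adjusted p = 0.238, exact permutation p = 0.0317, n = 5 per age). Neither passed after adjustment over all genes. The low level at 126 days thus passed against 180 days alone.

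MUL1, a mitochondrial ligase that in mice acts on mitofusin 2 in wasting muscle, had the lowest levels. At 42 days it was 4.57, 4.60, 3.30, 3.56 and 6.28 FPKM in replicates 1 to 5. At 126 days it was 3.63, 2.30, 1.87, 2.76 and 2.94 FPKM, and at 180 days 3.43, 2.92, 3.47, 2.54 and 3.33 FPKM. The 42-day birds tended to be the highest, but replicates 3 and 4 of that age overlapped with the others. The log2 fold change was -0.70 (SE 0.24, limma adjusted p = 0.134, exact permutation p = 0.0238, n = 5 per age) from 42 to 126 days and -0.47 (SE 0.21, limma adjusted p = 0.281, exact permutation p = 0.0397, n = 5 per age) from 42 to 180 days. From 126 to 180 days it was 0.23 (SE 0.22, limma adjusted p = 0.678). The member was not called in any comparison.

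**Figure D2:**
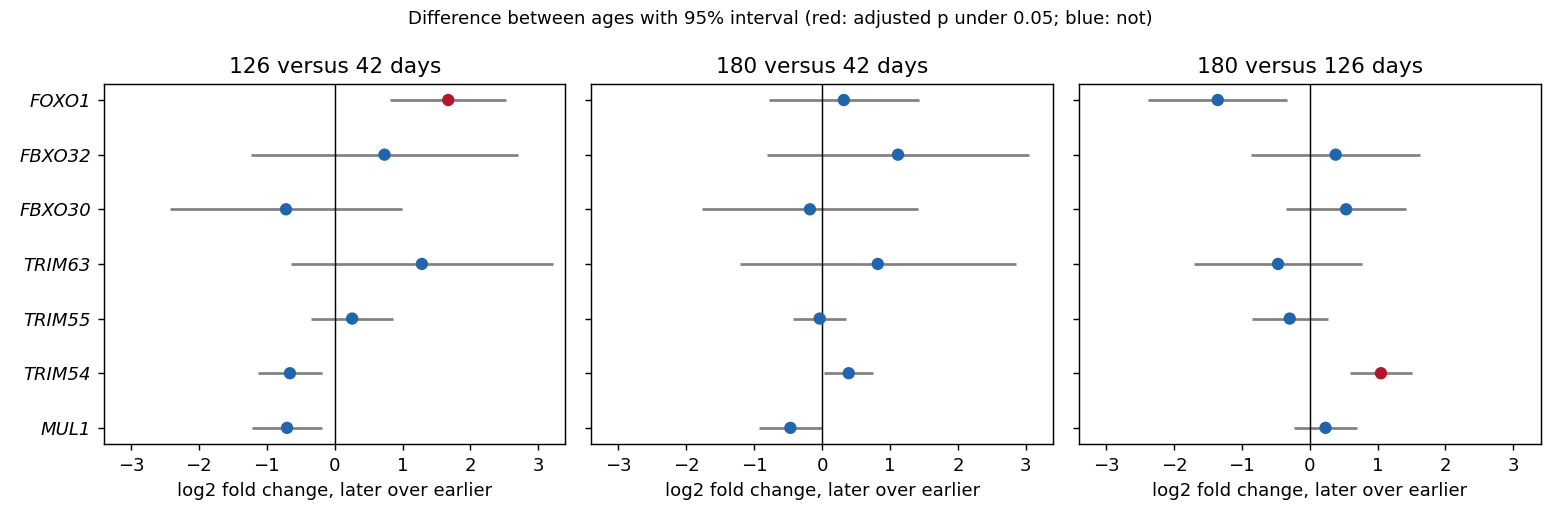
Log2 fold change (later over earlier age) with its 95% interval from limma for the 7 members in the 3 comparisons, in red where the adjusted p was under 0.05 and in blue where it was not. FOXO1 in 126 versus 42 days (1.67) and TRIM54 in 180 versus 126 days (1.05) are red, and the intervals of FBXO32, FBXO30 and TRIM63 cross 0 in all 3 comparisons.

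By mean FPKM over the 15 birds the order of the members was TRIM63 (450), FBXO32 (201), TRIM55 (91.7), TRIM54 (81.9), FBXO30 (64.2), FOXO1 (8.81) and MUL1 (3.43). TRIM63 and FBXO32, and FBXO32 and TRIM55, overlapped at every age. TRIM55 and TRIM54 overlapped at 42 and 180 days, while at 126 days every value of TRIM55 lay above every value of TRIM54. FBXO30 was below TRIM54 in all 5 birds of 180 days but above it in replicates 4 and 5 of 42 days and replicate 4 of 126 days. Between birds of an age the SD of log2(FPKM + 0.1) was 1.57 for TRIM63, 1.55 for FBXO32 and 1.28 for FBXO30, and 98.3%, 98.2% and 95.5% of 11601 genes varied less. FOXO1 followed with 0.85 (84.9%). TRIM55 (0.42), TRIM54 (0.32) and MUL1 (0.31) lay below the median gene (0.45). At 42 days alone the SD reached 2.21 for FBXO32, 1.94 for FBXO30 and 2.26 for TRIM63. At 126 days it was 1.14, 0.94 and 0.92 in the same order and 0.62 for FOXO1, and at 180 days 1.02, 0.51 and 1.21, and 1.06 for FOXO1. Over the 3 ages together the members that varied most between birds were thus TRIM63, FBXO32 and FBXO30. At 180 days alone FOXO1 varied about as much as FBXO32 and more than FBXO30.

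Whether members went up and down in the same birds was examined after the mean of each age had been removed, over 15 birds and 21 pairs of members, with 100000 permutations of birds within ages. FBXO32 and FBXO30 had a Pearson's r of 0.932 (permutation p = 0.00015, adjusted p = 0.00315) and a Spearman's rho of 0.925 (adjusted permutation p = 0.00483). FBXO30 and TRIM63 had an r of 0.926 (permutation p = 0.0004, adjusted p = 0.0042) and a rho of 0.843 (adjusted permutation p = 0.0084). FBXO32 and TRIM63 had an r of 0.885 (permutation p = 0.00131, adjusted p = 0.00917) and a rho of 0.821 (adjusted permutation p = 0.027). Both F-box ligases and the RING ligase thus tended to share their high and low birds. Whether these r differ from each other was not tested. When the 2 birds at the greatest distance from the first gene's median were removed, the r of these 3 pairs was 0.886, 0.837 and 0.776.

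At 42 days the birds fell into replicates 1 to 3 and replicates 4 and 5, and a pair of separate clusters alone can give a high r. Over the 10 birds of 126 and 180 days, the r of FBXO32 with FBXO30 was 0.808 (exact permutation p = 0.0121), that of FBXO30 with TRIM63 0.807 (exact permutation p = 0.00465) and that of FBXO32 with TRIM63 0.688 (exact permutation p = 0.041). At 126 days, however, replicates 2 and 4 lay above the others in TRIM63 and FBXO30. At 180 days replicates 1 to 3 lay above replicates 4 and 5 in all 3 ligases. These 10 birds therefore cannot tell a relation along the whole range from one between groups of birds. They were also among the birds over which the 3 pairs had passed, so their p are no independent check. Each of the 3 pairs kept an adjusted permutation p under 0.05 when any 1 of the 15 birds was left out, the largest being 0.0468. The points of a pair share a library, and which feature of the birds they follow was not tested.

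**Figure D3:**
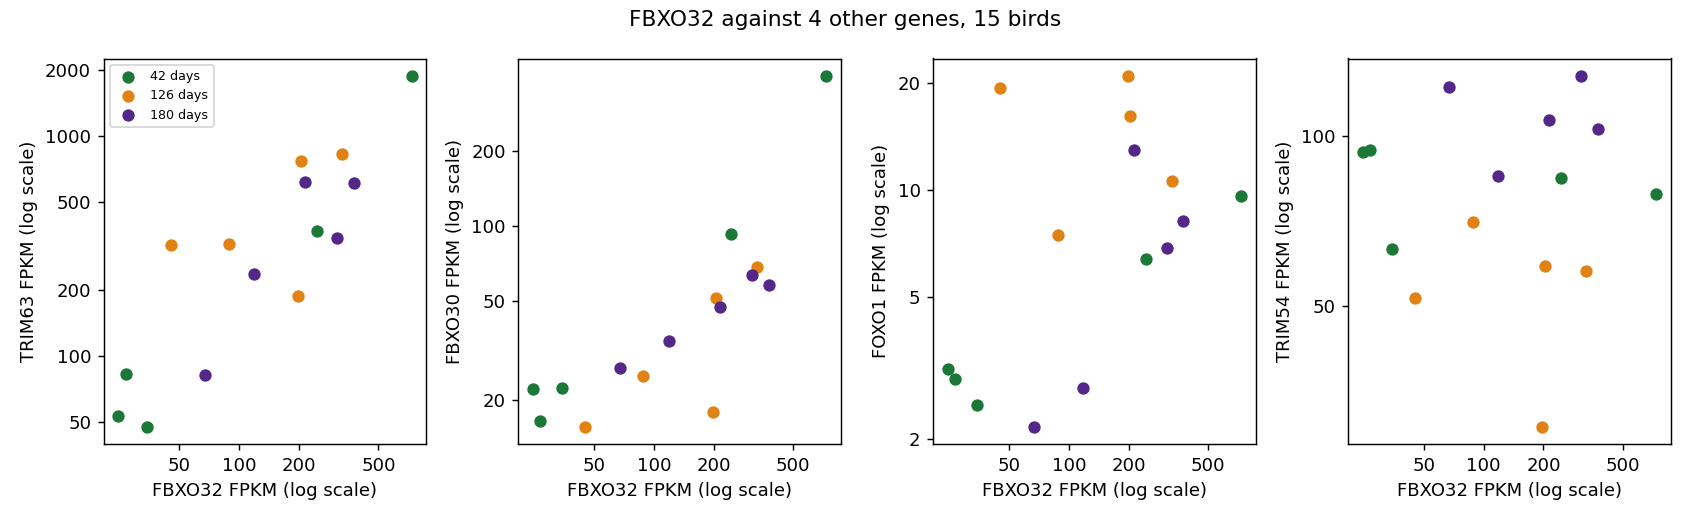
FPKM (log scales) of TRIM63, FBXO30, FOXO1 and TRIM54 against FBXO32 in the 15 birds, coloured by age. Birds high in FBXO32 tended to be high in TRIM63 and FBXO30 (r within ages 0.885 and 0.932), with an r of 0.654 for FOXO1 and of -0.0995 for TRIM54.

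FOXO1 also passed with a pair of ligases by Pearson's r, and whether these r differ from those among the ligases was not tested. Its r was 0.699 with TRIM63 (permutation p = 0.00586, adjusted p = 0.0308) and 0.654 with FBXO32 (permutation p = 0.0107, adjusted p = 0.0448). By rho neither passed (0.679, adjusted permutation p = 0.0661, and 0.571, adjusted permutation p = 0.116). When the 2 birds at the greatest distance from the ligase's median were removed, r was 0.457 and 0.547, and over the 10 birds of 126 and 180 days it was 0.533 (exact permutation p = 0.160) and 0.442 (exact permutation p = 0.216). The relation of FOXO1 with TRIM63 was lost in 10, and that with FBXO32 in 13, of the 15 analyses that left out 1 bird, replicate 5 of 42 days among them, without which r was 0.616 and 0.542. These calls were thus not stable when a bird was left out. In these 15 analyses r stayed between 0.616 and 0.792 with TRIM63 and between 0.542 and 0.771 with FBXO32. The other 16 pairs did not pass, with r between -0.27 (TRIM55 and FOXO1) and 0.534 (FBXO30 and FOXO1). TRIM54, TRIM55 and MUL1 passed with no other member.

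Among 11600 other genes ranked by r within ages, FBXO30 was number 2 for FBXO32 and TRIM63 number 14. For TRIM63, FBXO30 was number 2, FBXO32 number 10 and FOXO1 number 250. For FOXO1, TRIM63 was number 96 and FBXO32 number 159. These ranks are a description of the 15 birds.

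By r over all 15 birds and among 9544 genes with a symbol, the genes most like FBXO32 were KLHL38 (0.971), a kelch protein, SPSB1 (0.896), a substrate receptor of a ubiquitin ligase, and SLC25A33 (0.880), a carrier of pyrimidine nucleotides into mitochondria. KLHL38 ranged from 4.05 to 83.7 FPKM. Those most like FBXO30 were FBXO34 (0.922), another F-box protein, the kinase MAP3K3 (0.903) and the centrosomal protein CEP85 (0.882). Those most like TRIM63 were TSC22D4 (0.942), ZFAND5 (0.886), a zinc finger protein that binds the proteasome, and ZRANB1 (0.877), a deubiquitinase. The genes most like FOXO1 were the potassium channel KCNK4 (0.923), PFKFB3 (0.904), which sets the pace of glycolysis, and the transcription factor MYC (0.890). PFKFB3 ranged from 6.41 to 329 FPKM.

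TRIM54 was most like CECR2 (0.880), a chromatin remodelling protein, DES (0.868), the intermediate filament protein desmin, and SMPDL3B (0.861). For these 3 the r within ages was 0.694, 0.604 and 0.626, each lower than over all birds. TRIM55 had no close neighbour, with NAXD (0.785), which repairs damaged NADH, HADHB (0.753) of fatty acid oxidation and FOXP2 (0.717). MUL1 was most like ACACA (0.953), the acetyl-CoA carboxylase of fatty acid synthesis, ZDHHC1 (0.915) and EIF2S3 (0.909), a subunit of a translation initiation factor. All these r are descriptions over 15 birds that share libraries, with no test.

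Several entries share a name for TRIM63 (3), TRIM55 (8), TRIM54 (3) and FOXO1 (2). The second entry of FOXO1 was listed at 0 in all birds. The first entry of TRIM63 held 79.4%, 86.8% and 81.9% of its FPKM at 42, 126 and 180 days, and the first of TRIM55 held 78.7%, 73.3% and 77.8%. The first entry of TRIM54 held 73.7% ± 10.1, 83.9% ± 2.93 and 86.2% ± 2.42 (SD, n = 5), and its second entry 20.6% ± 11.0, 11.1% ± 2.59 and 8.33% ± 3.52. The second entry reached 21.6 and 28.43 FPKM in replicates 1 and 2 of 42 days and was at most 10.91 FPKM in all birds of the older ages. Tested alone, the first entry of TRIM54 had a log2 fold change of 1.09 from 126 to 180 days (SE 0.23, limma adjusted p = 0.135). Its second entry had -1.41 from 42 to 126 days (SE 0.32, limma adjusted p = 0.104). No entry of a member passed when single entries were tested, where 0.206%, 0.621% and 0.0448% of all entries did in the 3 comparisons. The call of TRIM54 was thus made for the summed entries and for none of them alone. Which transcript each entry stands for is not given in the sources used here.

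**Figure D4:**
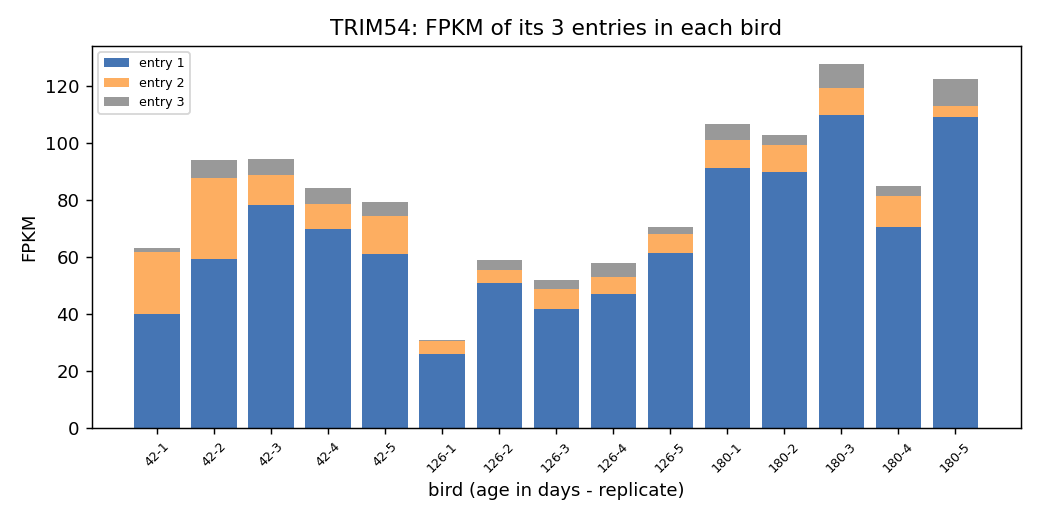
FPKM of the 3 entries named TRIM54, stacked, in each of the 15 birds (age in days and replicate). The first entry made up most of the level in every bird, from 25.93 FPKM in replicate 1 of 126 days to 109.73 FPKM in replicate 3 of 180 days, and the second was largest in replicates 1 and 2 of 42 days.

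Genes around this pathway were counted on 6 lists, of which 98 of 108 genes were found. The counts and medians of each list stand against those of all genes. Of these, 3.21%, 3.41% and 1.25% passed in 126 versus 42, 180 versus 42 and 180 versus 126 days. An unadjusted p under 0.05 (limma) was reached by 19.6%, 17.6% and 15.8% of all genes. Their median log2 fold changes were -0.15, -0.13 and 0.01. On the list of other FOXO genes and FOXO regulators, with 16 genes such as FOXO4 and the AKT kinases, 1 was lower and 0 were higher at 126 than at 42 days, 0 passed between 42 and 180 days (1 at an unadjusted p under 0.05, limma), and 1 was higher at 180 than at 126 days. The median log2 fold changes of this list were 0.07, -0.04 and -0.21. The gene in question was PRKAA2 each time, the catalytic subunit of the energy sensor AMPK, which phosphorylates FOXO proteins in mammals. It was 41.1 ± 8.34 FPKM at 42 days, 19.0 ± 6.24 FPKM at 126 days and 42.1 ± 7.81 FPKM at 180 days (SD, n = 5). PRKAA2 fell by 1.14 on the log2 scale from 42 to 126 days (limma adjusted p = 0.0272) and rose by 1.19 from 126 to 180 days (limma adjusted p = 0.0309). Its 126-day birds, at most 26.45 FPKM, lay below all others, which were at least 31.65 FPKM. On the same list the 126-day birds of AKT2 also lay below all others (at most 42.51 against at least 42.83 FPKM). Those of SIRT1 lay above all others (at least 9.01 against at most 8.92 FPKM), and neither AKT2 nor SIRT1 passed. Of all genes, 6.45% had no overlap in 126 versus 42 days and 4.32% in 180 versus 126 days. These comparisons share the birds of 126 days. The calls of PRKAA2 were lost in 5 and 7 of the 10 fits that left out 1 bird. The largest adjusted p by limma (0.0722 and 0.0962) were those without replicate 3 of 126 days and replicate 3 of 180 days.

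Of 21 listed targets of FOXO factors 19 were found, and 18 or 19 were tested. From 42 to 126 days 1 rose and 1 fell, from 42 to 180 days 0 rose and 2 fell, and from 126 to 180 days 0 passed (5 at an unadjusted p under 0.05, limma). For all genes the shares that passed were 3.21%, 3.41% and 1.25%, as above. Between 126 and 180 days 15.8% of all genes had an unadjusted p under 0.05 (limma). Among the 5 targets was PDK4, with a log2 fold change of -3.01 (SE 0.99, limma adjusted p = 0.163). The medians were 0.06, -0.07 and -0.10. IRS2, an insulin receptor substrate that FOXO factors induce in mammals, rose from 3.05 ± 1.84 to 12.1 ± 3.97 FPKM between 42 and 126 days (SD, n = 5, log2 fold change 2.08, limma adjusted p = 0.021). EIF4EBP1, the brake on cap-dependent translation, fell from 109 ± 35.5 FPKM at 42 days to 36.1 ± 9.63 FPKM at 126 days and 28.6 ± 9.98 FPKM at 180 days (SD, n = 5). Its log2 fold changes were -1.54 (limma adjusted p = 0.0195) and -1.93 (limma adjusted p = 0.00937). GADD45A, a stress gene of growth arrest, fell by 1.13 on the log2 scale from 42 to 180 days (limma adjusted p = 0.0217). The call of EIF4EBP1 at 180 days held whichever bird was left out. That at 126 days and those of IRS2 and GADD45A were each lost in 3 of 10 such fits, with the largest adjusted p by limma 0.0557 (without replicate 2 of 42 days), 0.0573 (without replicate 3 of 126 days) and 0.0582 (without replicate 2 of 180 days).

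The targets were also compared bird by bird with FOXO1, FBXO32 and TRIM63, over 19 targets and 57 pairs after the mean of each age had been removed. These correlations and the genes named from them were chosen after the values had been seen. With FOXO1 5 of 19 targets passed an adjusted permutation p of 0.05, with FBXO32 6 and with TRIM63 5, and all 16 correlations were positive. By rho 4, 5 and 6 passed. At or above the lowest r that passed (0.637, 0.699 and 0.746) were 26.3%, 31.6% and 26.3% of the targets, and 1.69%, 2.59% and 1.21% of 11600 other genes. The median r was 0.44, 0.50 and 0.50 over the targets and 0.13, 0.09 and 0.06 over all genes. The cutoffs were set by the targets themselves, so their share at or above them is the share that passed. These shares are descriptions, since neither the cutoffs nor the list were chosen independently of these data. Enrichment of the targets was not tested. Over the 10 birds of 126 and 180 days, 11 of the 16 pairs had an exact permutation p under 0.05, namely 3 of 5 with FOXO1, 5 of 6 with FBXO32 and 3 of 5 with TRIM63. These p were not adjusted for the number of pairs. The 16 pairs had been picked on a set of birds that includes these 10, so the count is no independent check of them. Among pairs outside the 16, FOXO1 and the autophagy gene MAP1LC3B had a negative r there (-0.740, exact permutation p = 0.0292). Positive ones were EIF4EBP1 with FBXO32 (0.904, exact permutation p = 0.000139) and TRIM63 (0.811, 0.0151), and CDKN1B with TRIM63 (0.647, 0.0441). The highest r of FOXO1 was with PDK4 (0.912, permutation p = 4e-05, adjusted p = 0.00228, rho 0.893, adjusted permutation p of rho 0.016), the kinase that turns pyruvate away from oxidation in fasting. When the 2 birds at the greatest distance from the median of FOXO1 were removed, r was 0.846, and over the 10 birds of 126 and 180 days it was 0.899 (exact permutation p = 0.00125).

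PDK4 was 11.7, 43.08, 36.42, 541.76 and 1218.02 FPKM in replicates 1 to 5 of 42 days. It was 374.84, 412.7, 268.81, 221.11 and 151.06 FPKM at 126 days and 153.32, 86.85, 129.61, 9.17 and 2.49 FPKM at 180 days. The birds with the highest PDK4 at 42 days were replicates 4 and 5, those with high FBXO32 and TRIM63, and the lowest at 180 days were replicates 4 and 5, those with the least FOXO1. SESN1, a stress protein that restrains mTOR, correlated with FOXO1 (r = 0.850, adjusted permutation p = 0.0107), FBXO32 (r = 0.803, adjusted permutation p = 0.0095) and TRIM63 (r = 0.746, adjusted permutation p = 0.0192). CCNG2, a cyclin of arrested cells, also passed with all 3 (0.637, 0.831 and 0.768), but over the 10 birds of 126 and 180 days its r was 0.440 (exact permutation p = 0.193), 0.692 (exact permutation p = 0.05) and 0.496 (exact permutation p = 0.167). KLHL24, a kelch protein, and ATG14, of autophagosome formation, passed with FBXO32 (0.906 and 0.879) and TRIM63 (0.849 and 0.865) but not with FOXO1 (0.48 and 0.46). When the 2 birds farthest from the median of TRIM63, replicates 5 of 42 and of 180 days, were removed, the r of TRIM63 fell. It was then 0.707 with PDK4, 0.644 with SESN1, 0.560 with CCNG2, 0.601 with KLHL24 and 0.596 with ATG14. PNPLA2, the lipase that opens the fat droplet, and BNIP3L passed with FOXO1 (0.815 and 0.645), and BNIP3, of mitophagy like BNIP3L, with FBXO32 (0.699). Over the same 10 birds KLHL24 with TRIM63 had an r of 0.560 (exact permutation p = 0.0839) and BNIP3L with FOXO1 0.597 (exact permutation p = 0.0871). Whether a target followed FOXO1 and a ligase to a different degree was not tested. SOD2, the mitochondrial superoxide dismutase, had negative r with all 3 (-0.60, -0.21 and -0.45 in the order FOXO1, FBXO32 and TRIM63), and none of these passed.

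**Figure D5:**
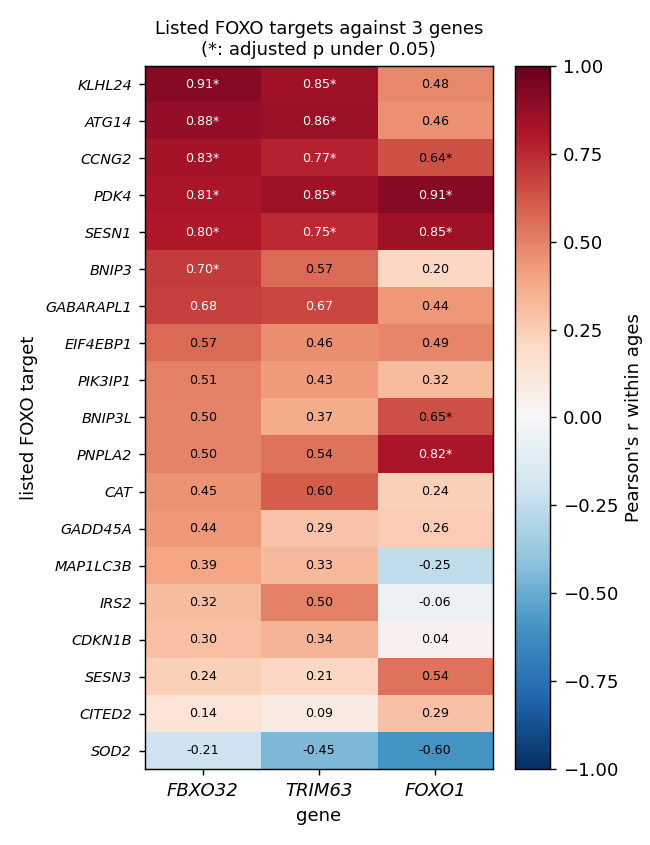
Pearson's r within ages (15 birds) of 19 listed FOXO targets with FBXO32, TRIM63 and FOXO1, from -1 in blue to 1 in red, with an asterisk where the adjusted permutation p was under 0.05. The 16 pairs with an asterisk are all positive, and PDK4, SESN1 and CCNG2 have one in each column.

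Of the other muscle ubiquitin ligases, 19 of 20 were found, and 1 of these was higher at 126 than at 42 days, while 0 passed in the others (4 from 42 to 180 and 2 from 126 to 180 days at an unadjusted p under 0.05, limma). Their median log2 fold changes were -0.20, -0.13 and 0.02. The gene was ASB2, a receptor of a cullin ligase that in mice restrains muscle mass. It was 7.92, 23.21, 12.63, 37.2 and 325.74 FPKM in replicates 1 to 5 of 42 days. It was between 204.85 and 493.75 FPKM at 126 days and between 66.06 and 286.23 FPKM at 180 days. ASB2 rose by 3.60 on the log2 scale from 42 to 126 days (SE 0.78, limma adjusted p = 0.0302), and replicate 5 of 42 days lay within the range of 126 days. Without that bird the log2 fold change was 4.45 (limma adjusted p = 0.00107), and in 8 of 10 fits without 1 bird the call was lost (largest adjusted p 0.0757 by limma, without replicate 2 of 126 days).

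Of the SCF core, ubiquitin and conjugating enzymes 14 of 15 were found. From 42 to 126 days 1 rose and 1 fell, and 0 passed in the other comparisons (3 in each at an unadjusted p under 0.05, limma), with medians of -0.26, -0.19 and 0.11. UBB, which encodes ubiquitin itself, was between 608 and 832 FPKM in replicates 1 to 4 of 42 days and 4097 FPKM in replicate 5. It was between 3077 and 5919 FPKM at 126 days and between 2220 and 3272 FPKM at 180 days. UBB thus separated replicate 5 from the other birds of 42 days as the 3 variable ligases did, but not replicate 4. It rose by 2.06 on the log2 scale to 126 days (limma adjusted p = 0.0341), and by 2.57 without replicate 5 of 42 days (limma adjusted p = 0.000515). The call was lost in 8 of 10 fits without 1 bird (largest adjusted p 0.0901 by limma, without replicate 2 of 42 days). UBB can share reads with other ubiquitin genes, so its level is uncertain. USP19, a deubiquitinase, fell by 0.81 on the log2 scale from 42 to 126 days (limma adjusted p = 0.048), a call lost in 9 of 10 such fits (largest adjusted p 0.110 by limma, without replicate 2 of 126 days).

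Of the upstream signals of atrophy 21 of 23 were found and 20 tested. From 42 to 126 days 1 fell and 0 rose, from 42 to 180 days 1 fell and 0 rose, and 0 passed between 126 and 180 days (0 also at an unadjusted p under 0.05, limma), with medians of -0.25, -0.28 and -0.03. HDAC4, which links loss of nerve supply to atrophy genes, fell from 5.11 ± 0.45 FPKM at 42 days to 2.99 ± 0.311 FPKM at 126 days (SD, n = 5, log2 fold change -0.75, limma adjusted p = 0.0335). FST, the follistatin that binds myostatin, fell by 2.01 on the log2 scale from 42 to 180 days (limma adjusted p = 0.0345). Both calls were lost in 8 of 10 fits without 1 bird (largest adjusted p 0.0928 without replicate 2 of 126 days and 0.0932 without replicate 1 of 42 days, by limma). MSTN, myostatin itself, had log2 fold changes of -0.21, -0.71 and -0.50 and did not pass.

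Of the listed substrates 9 of 13 were found, and 1 was higher at 180 than at 126 days, while 0 passed from 42 to 126 and from 42 to 180 days (1 and 3 at an unadjusted p under 0.05, limma). Their medians were -0.13, 0.11 and 0.02. The gene was DES, desmin, which is removed early in mammalian atrophy and was also a near neighbour of TRIM54. It was 821 ± 266 FPKM at 126 days and 2048 ± 341 FPKM at 180 days (SD, n = 5), with no overlap (log2 fold change 1.38, limma adjusted p = 0.0286). The call was lost in 6 of 10 fits without 1 bird (largest adjusted p 0.0715 by limma, without replicate 3 of 180 days). TTN, the giant sarcomere protein bound by the MuRF family, had -0.28, 0.11 and 0.38 and did not pass.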

How the data were processed

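Breast muscle RNA of 15 hens, 5 each at 42, 126 and 180 days, was taken as the authors deposited it, in FPKM with 2 decimals. Their reads were trimmed and mapped, and the submitters' processing notes name HISAT2 2.2.1 and StringTie 2.1.6. The genome build is not given in the sources used here, so no positions are printed. FPKM of entries with 1 gene name were summed. The authors used DESeq2, which needs counts, and FPKM are none. Each pair of ages was therefore compared with limma 3.58.1 (R 4.3.3, with a trend, two-sided) on log2(FPKM + 0.1) of its 10 birds, keeping genes whose mean reached 0.5 FPKM, with Benjamini-Hochberg adjustment. A fold change on this scale understates the change of low genes. A gene passed with an adjusted p under 0.05 and was a differentially expressed gene if the log2 fold change was also at least 1 in size. Exact permutation tests of 5 against 5 birds stand beside it, with a smallest p of 0.00794.

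Correlations used log2 values centred on the mean of each age, with 100000 permutations within ages (Python 3.11.15, numpy 2.4.6, pandas 2.3.3, scipy 1.17.1, two-sided). Figures were drawn with matplotlib 3.10.9. The fits were tested on simulated data. Alternatives were a pseudocount of 1, other filters, rescaled sums, quantile normalization, all ages in one fit, a replicate block, only the highest entry of each name, and each bird left out. Single entries, 126 and 180 days alone, and r without the 2 farthest birds were alternatives chosen after seeing the data. Named genes were the members, each list gene that passed (at most 8 per list) and the 3 genes most correlated with each member, and others are said to be chosen after their values were seen or serve to describe a list. The members and lists were chosen with earlier results of these data known, so their counts are descriptions. The labels number separate chickens and give no batch or date. Promoter motifs and protein identity were not analysed here.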

Additional observations from a re-analysis of the deposited data

Results flagged for a closer look

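At 42 days, FBXO30 in replicate 5 was 399.31 FPKM, set apart from the nearest bird (92.67 FPKM) by 0.801 of the range of the 5 birds, above the critical value of Dixon's test of 0.71. TRIM63 in the same bird was 1871.65 FPKM, with the nearest bird at 368.18 FPKM and a gap of 0.824 of the range. These are 2 of 21 sets of 5 birds (7 genes at 3 ages), where chance sets about 1 in 20 apart if values are normally distributed. The gaps were taken on FPKM, and log2 values, used elsewhere, were not tested in this way. Both gaps belong to the same bird, in genes that correlated within ages (r = 0.926), so they are not separate events. FBXO32, at 734.94 FPKM in that bird, did not reach the critical value. The same bird had 225.54 FPKM of GABARAPL1, an autophagy gene, against 15.06 to 22.92 FPKM in the other birds of its age, and the lowest summed level of skeletal muscle markers.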

How the results depend on the processing

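The number of differentially expressed genes moved with how entries were joined and with single birds. From 42 to 126 days it was 283, and 186 with a pseudocount of 1, 169 with no filter, 51 with only the highest entry of each name and 77 to 375 with 1 bird left out. From 42 to 180 days it was 342, and 172 with the highest entry and 176 to 770 with 1 bird left out. From 126 to 180 days it was 106, and 53 with no filter, 20 with the highest entry, 270 with the replicate block and 15 to 378 with 1 bird left out, the highest without replicate 1 of 180 days. Quantile normalization moved the median of all genes from -0.15 to -0.01 between 42 and 126 days, the share of higher calls from 22.3% to 43.3%, and in 180 versus 126 days from 50.9% to 33.3% (38.9% with the block). The replicate numbers did not pair the birds by the rule that all 5 same-numbered pairs correlate over 0.1 (they ranged from -0.128 to 0.320, with 3, 2 and 4 of 5 pairs over 0.1 and 1, 1 and 3 of 5 best with their own number in the 3 comparisons), and under the replicate block FOXO1 was lost from 42 to 126 days (adjusted p = 0.0965, limma) and passed from 126 to 180 days (0.0202).

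FOXO1 from 42 to 126 days also lost its call with no filter (0.0791), all ages in one fit (0.0596), the highest entry (0.103) and single entries (0.132), and TRIM54 from 126 to 180 days with no filter (0.0701), quantile normalization (0.0634), the highest entry (0.0877) and single entries (0.135, all limma adjusted p). All other member fold changes kept sign and call in these alternatives. The second entry of FOXO1 was at 0 in all birds. The values of FOXO1 were therefore unchanged with the highest entry and with single entries, and only the other genes in the fit differed. With 1 bird left out, the log2 fold change ran from -1.11 to 0.0339 for FBXO30 (42 to 126 days), from -0.577 to 0.571 for FBXO30 and from -0.123 to 0.0836 for TRIM55 (42 to 180 days), and from -0.0235 to 0.742 for FBXO32 and -0.752 to 0.00494 for TRIM63 (126 to 180 days), each crossing 0.

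Of 21 pairs of members 5 were correlated within ages, 3 by rho, 3 with linear FPKM, and 3 to 6 with 1 bird left out. Weak correlations changed sign. By rho FBXO32 and TRIM55 had -0.00714, FBXO30 and TRIM54 -0.0143, TRIM63 and TRIM54 -0.111, and TRIM54 and MUL1 0.0107. With linear FPKM FBXO30 and TRIM54 had -0.0385 and TRIM63 and TRIM54 -0.0221. After quantile normalization FBXO32 and TRIM55 had -0.0461, TRIM63 and TRIM55 -0.0238, TRIM63 and TRIM54 -0.0342, TRIM55 and MUL1 0.0492, TRIM54 and MUL1 0.0892, and FOXO1 and MUL1 -0.109. Without the 2 farthest birds FBXO30 and TRIM55 had -0.124, FBXO30 and MUL1 -0.0877, TRIM63 and MUL1 -0.313 and TRIM54 and MUL1 0.341. Over 126 and 180 days TRIM63 and MUL1 had -0.205. With 1 bird left out, the ranges that crossed 0 were -0.192 to 0.250 for FBXO32 and TRIM55, -0.0395 to 0.355 for FBXO30 and TRIM55, -0.0239 to 0.258 for FBXO30 and TRIM54, -0.0411 to 0.553 for FBXO30 and MUL1, -0.0606 to 0.284 for TRIM63 and TRIM55, -0.0793 to 0.234 for TRIM63 and TRIM54, -0.323 to 0.356 for TRIM63 and MUL1, -0.236 to 0.104 for TRIM55 and MUL1, -0.36 to 0.231 for TRIM54 and MUL1, and -0.0195 to 0.364 for FOXO1 and MUL1. The cause of these changes was not tested.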
